A study of Mus musculus with 17 samples.

Results

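Trim39 is a single gene of the 49585 quantified in plasma cell-free RNA (cfRNA) of mice from a spaceflight mission, and it was selected on its measured difference between in-flight artificial gravity and ground control. That contrast chose the gene, so its levels across the groups are a description and no test is given for them. The libraries came from 6 artificial gravity (AG), 6 microgravity (MG) and 5 ground control (GC) mice, with 1 library per mouse. All mice were C57BL/6J, wild type and 13 weeks old, and the AG and MG groups both lived on the International Space Station. AG mice were kept on a rotating platform that restored 1-G, MG mice were not, and GC mice stayed on Earth. Plasma holds RNA released by many tissues, so a change in the number of releasing cells and a change in RNA per cell cannot be told apart here. The libraries were made with a small RNA kit because the RNA was degraded, and a gene's count is therefore a count of short fragments of its transcripts.

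Most TRIM proteins are ubiquitin ligases built from a RING domain, B-box zinc fingers and a coiled coil. Trim39 carries in addition a C-terminal PRY-SPRY domain and lies in the major histocompatibility complex (MHC) region. It is known to stabilise the pro-apoptotic protein Moap1, to ubiquitinate the transcription factor Nfatc3, and to inhibit the anaphase-promoting complex (APC/C), a large ubiquitin ligase of the cell cycle. The family also includes regulators of innate immunity, and Trim10 and Trim58 are known from red cell maturation.

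The gene (ENSMUSG00000045409.16) lies on the minus strand of chromosome 17 at chr17:36258873-36272247 of GRCm38. The ratio of its counts to its RPKM values (reads scaled to gene length and to all mapped reads) implied a gene length of 7223 bases in every library, which equals the length of all its annotated exons joined. No other annotated gene overlaps it. Of the 3050 windows of 36 bases, the read length, in its first annotated transcript, 38 (1.25%) occur also in a transcript of another gene on either strand. All 38 lie in the 3′ untranslated region (UTR), and none of the 1467 windows starting in the coding sequence or the 117 in the 5′ UTR is shared. The 38 windows are shared with transcripts of 642 other genes. The reads were counted over the exons of all transcripts, and an annotated retained-intron transcript of Trim39 has 18 further shared windows of 4683, matching 3 genes. How reads with several matches were counted is not stated, so reads from these short stretches are uncertain. The search covered only exact matches of 36 bases to annotated transcripts. Inexact matches, matches elsewhere in the genome and matches of shorter reads were not searched, so more of the gene may be shared. The counts do not show where along Trim39 the reads fell.

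The RPKM values imply 1596032 to 9796884 mapped reads per library, most of which were not counted on genes. Counts on genes were few, at 84657 to 277682 per library. Of these counts, 4 genes (Lars2, Polr2m, Rn18s-rs5 and Tmem38b) held 86.9 to 91.7% in AG, 70.6 to 83.5% in MG and 76.9 to 83.1% in GC. Every value scaled to the library total is therefore set largely by those genes, and the share they held was higher in every AG library than in any other. Its part in the Trim39 values was not tested directly, but Trim39 was also computed with the 4 genes removed from the total.

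Trim39 was detected in all 17 libraries, with 1042 reads, and ranked 54th of all genes by reads. The AG libraries held 60, 127, 192, 103, 62 and 46 Trim39 reads from replicate 1 to replicate 6. The MG libraries held 67, 53, 49, 94, 39 and 32 reads, and the GC libraries held 15, 21, 21, 31 and 30 reads from replicate 1 to replicate 5. Each AG and each MG library thus held more Trim39 reads than any GC library, and only the MG value of 32 came within 1 read of the GC range. AG and MG counts overlapped.

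Scaled to the library total as reads per 1000000 counts (CPM), Trim39 stood at 399, 508, 691, 543, 537 and 277 in AG. In MG it stood at 589, 457, 422, 804, 258 and 143 CPM. The GC libraries gave 177, 120, 164, 159 and 167 CPM. The GC values were the tightest, with an SD of 22.1 around a mean of 157 CPM (n = 5). All AG libraries lay above all GC libraries, while MG replicate 6 fell inside the GC range. The exact 95% binomial interval, which covers counting error only, ran from 202 to 369 CPM in the lowest AG library and from 99.2 to 292 CPM in the highest GC library, and these 2 intervals overlapped. On this scale the AG mean of 492 ± 141 CPM (SD, n = 6) and the MG mean of 446 ± 235 CPM (SD, n = 6) differed by less than the SD of either group.

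Trimmed mean of M-values (TMM) scaling, which sets each library against the bulk of genes rather than the total, set AG and MG further apart. TMM-normalized CPM of Trim39 were 525, 573, 1108, 940, 969 and 600.4 in AG. They were 348, 255, 372, 763, 160 and 257 in MG, and 109, 77.8, 130, 311 and 125 in GC. AG again lay wholly above GC, 5 of 6 MG libraries now lay below every AG library, and 3 of 6 MG libraries lay above every GC library. The means were 786 ± 249 (SD) in AG, 359 ± 212 in MG and 151 ± 91.9 in GC. MG replicate 4 stood far above the other MG libraries and GC replicate 4 far above the other GC libraries.

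**Figure D1:**
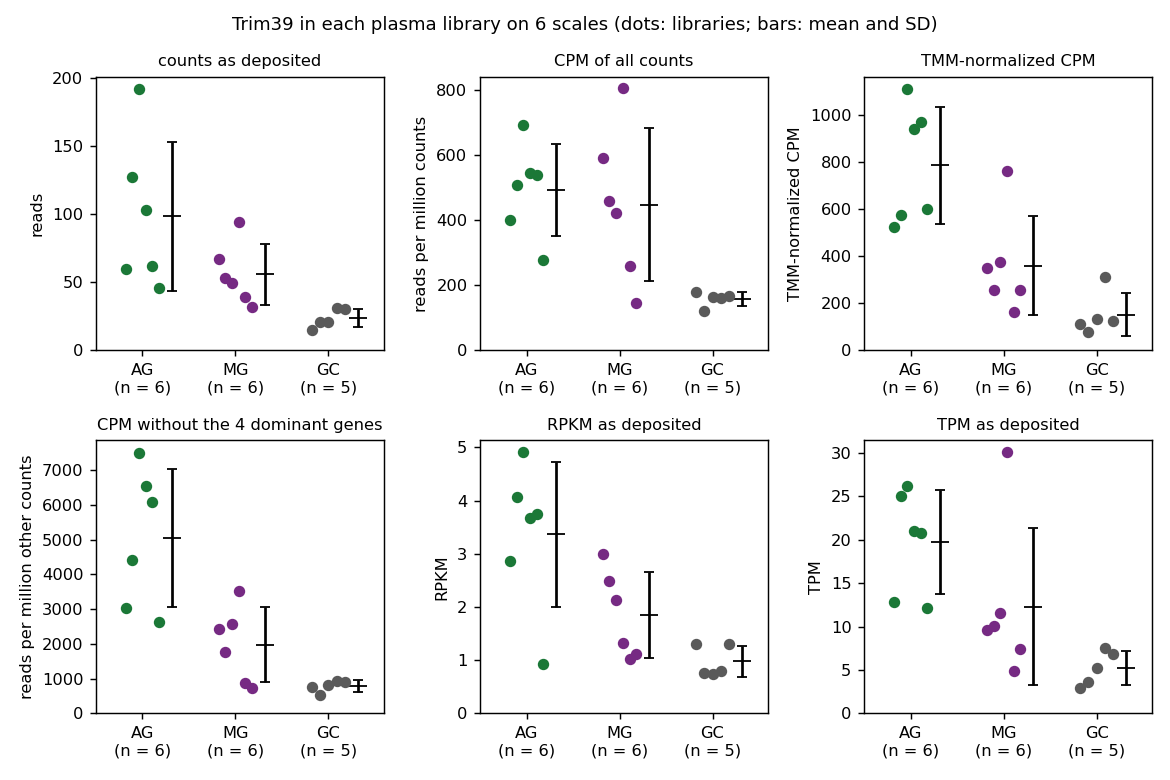
Trim39 in each library (dots) with the group mean and SD (bars) on 6 linear scales, each with its own vertical axis: counts, CPM of all counts, TMM-normalized CPM, CPM without the 4 dominant genes, RPKM and TPM. AG dots lie above all GC dots on every scale but RPKM, where AG replicate 6 (0.928 RPKM) sits within the GC range of 0.738 to 1.30.

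In edgeR's quasi-likelihood fit over the 272 genes with enough reads, the Trim39 log2 fold change was 2.40 (SE 0.47) for AG vs GC. It was 1.27 (SE 0.46) for MG vs GC and -1.13 (SE 0.42) for MG vs AG. Only 2 tested genes, Alb and Hist1h3b, had a higher AG vs GC fold change, and 7 had a higher MG vs GC fold change. In this fit 4 genes (1.47%) passed an adjusted p of 0.05 in AG vs GC, all of them higher in AG, and 0 passed in MG vs AG or MG vs GC. Trim39 is among the 4 and is counted only as part of this background. Its passing is no test of it and nothing is read from that, because the contrast selected it. Without TMM scaling 9 genes passed in AG vs GC, 1 higher and 8 lower, and 58 passed in MG vs AG, all higher.

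The difference between the 2 flight groups depended on the scaling. Without TMM scaling the log2 fold change of MG vs AG was -0.081 (SE 0.45), that of AG vs GC was 1.61 (SE 0.50) and that of MG vs GC was 1.53 (SE 0.50). The median of all tested genes moved in step with the scaling, from -0.21 with TMM to -1.14 without it in AG vs GC, and from 0.17 to 1.27 in MG vs AG. A scaling factor moves all genes of a library alike, so the distance of Trim39 from that median is nearly fixed by construction. This distance was 2.61 with TMM and 2.76 without it in AG vs GC, -1.30 and -1.35 in MG vs AG, and 1.27 and 1.43 in MG vs GC.

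Differences of the group means of log2(value + 1) had the same sign on all 9 scales tried and varied in size. They ran from 0.64 to 2.67 for AG vs GC, from 0.32 to 1.31 for MG vs GC and from -1.45 to -0.29 for MG vs AG. On TMM-normalized CPM the difference was 2.48 for AG vs GC against a pooled SD within groups of 0.60. The MG vs AG difference of -1.24 compared with an SD of 0.62, and the MG vs GC difference of 1.24 with an SD of 0.74. For AG vs GC and MG vs GC the smallest differences came from RPKM and from RPKM over the library mean, whose low values are compressed by adding 1, and for MG vs AG the smallest came from CPM. TPM and RPKM over the library mean differ only by a constant, with the same AG vs GC ratio of means (3.76). Their AG vs GC differences of 1.74 and 0.64 are therefore unlike only through the added 1, and these 2 scales are not independent.

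**Figure D2:**
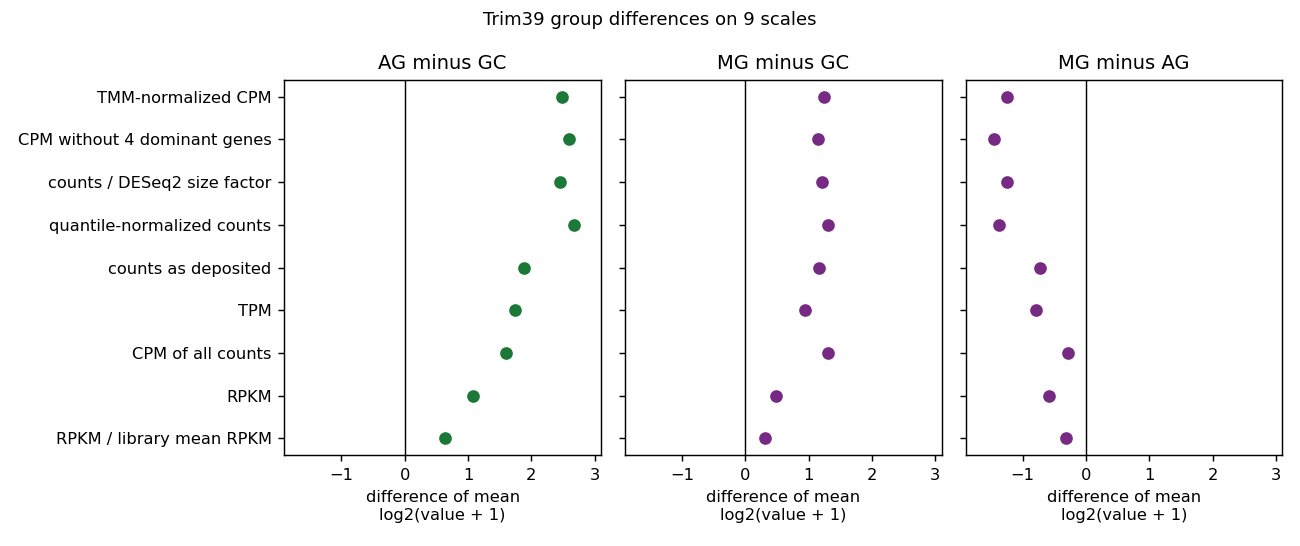
Difference between group means of log2(Trim39 value + 1) on 9 scales (rows) for AG minus GC, MG minus GC and MG minus AG (panels), with a line at 0. All dots of the first 2 panels lie above 0 and all dots of the last below 0, and the MG minus AG dot for CPM (-0.29) is the nearest to 0 in its panel.

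The deposited RPKM gave a less separated picture. Trim39 RPKM were 2.87, 4.06, 4.92, 3.67, 3.74 and 0.928 in AG. They were 2.996, 2.49, 2.12, 1.33, 1.03 and 1.13 in MG, and 1.30, 0.758, 0.738, 0.789 and 1.30 in GC. AG replicate 6 lay below 2 GC libraries, 2 MG libraries lay inside the GC range and another just above it. RPKM divides by all mapped reads, which the values imply to number 1596032 to 9796884 per library, and AG replicate 6 had the most of the AG group (6859728). In TPM, the other length-scaled unit, where the length-scaled values of a library sum to a constant, AG lay above GC again, at 19.7 ± 5.98 against 5.24 ± 1.99 (SD), and MG gave 12.3 ± 9.02.

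No other TRIM gene resembled Trim39 in abundance. Of the 71 other TRIM family genes in the files, 42 had any read, and together they held 447 reads, so Trim39 alone took 70.0% of all TRIM reads. Trim14, an activator of antiviral signalling, held the most with 50 reads. Per length, the mean RPKM over all libraries was 2.13 for Trim39 and 0.166 for Trim14, the next highest TRIM gene.

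The 5 other TRIM genes listed for the MHC region lie more than 500 kb from Trim39 and were close to 0. Trim10 held 13 reads in all (6 in AG, 6 in MG and 1 in GC), Trim26, a regulator of interferon induction, held 7 and Trim31 held 5. Trim15 and Trim40, the latter an inhibitor of NF-kappaB signalling, were listed at 0 in every library. Trim58, a ligase that acts in late erythroblasts, held 1 read.

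Summed over the 71 genes, the other TRIM genes did not follow Trim39. Their TMM-normalized CPM were 163 ± 48.5 (SD) in AG, 196 ± 88.1 in MG and 192 ± 102 in GC. These groups differed by less than their spread. In plain CPM the sums were 102 ± 26.0, 246 ± 101 and 225 ± 143, lowest in AG where Trim39 was highest. The number of Trim39 reads per read of another TRIM gene, which no scaling can change, ran from 3 to 12 in AG, from 1.05 to 3.05 in MG and from 0.385 to 2 in GC. Every AG library exceeded every GC library, and MG overlapped both groups.

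**Figure D3:**
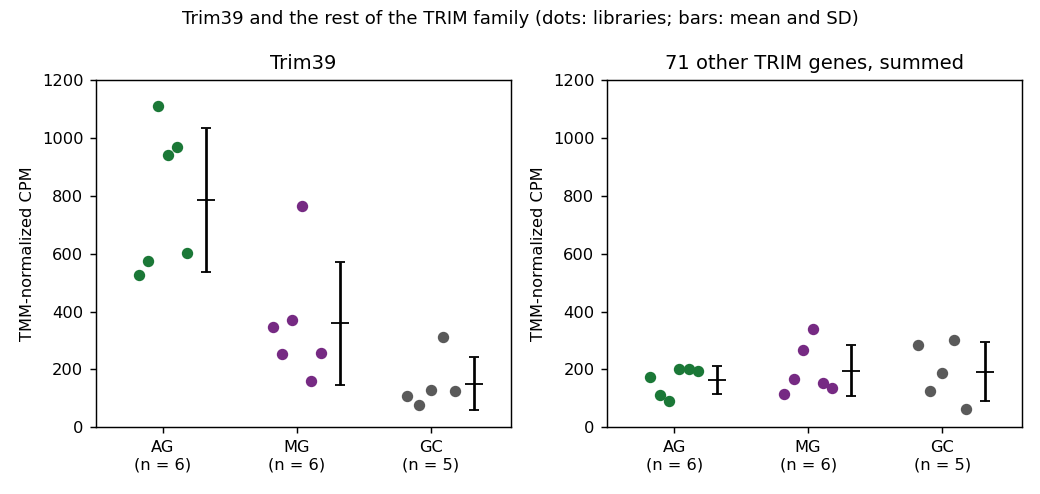
TMM-normalized CPM of Trim39 (left) and of the 71 other TRIM genes summed (right) in each library (dots), with group mean and SD (bars), on the same vertical axis. The Trim39 dots of AG lie above those of GC, while the summed genes overlap in all 3 groups with means of 163, 196 and 192.

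None of the other TRIM genes had enough reads for the fit on 272 genes. In a fit on the 6270 genes with at least 5 reads over all libraries, 23 other TRIM genes could be tested and 0 passed an adjusted p of 0.05 in any pair, where 0% of all genes passed in AG vs GC, 0.0957% in MG vs AG and 0.159% in MG vs GC. By the criterion of the study (unadjusted p below 0.05 and a fold change over 1.5), 2 of 23 passed in AG vs GC, 4 in MG vs AG and 0 in MG vs GC, against 12.2%, 13.1% and 13.6% of all genes. The 2 were Trim12a and Trim44, singled out from their values, and both were lower in AG, as were 6.36% of all genes. Trim12a, an antiviral gene of a mouse-specific cluster with close copies, had 0 reads in AG, 14 in MG and 8 in GC, and 10 of the 14 were in MG replicate 4. Trim44 had 0 reads in AG, 8 in MG and 9 in GC. The other 2 of the 4 in MG vs AG were Trim5 (0 reads in AG and 4 in MG) and Trim30a (1 and 16 reads), and all 4 were higher in MG, as were 9.87% of all genes. Leaving out AG replicate 1 or GC replicate 4 raised the AG vs GC count to 4, and leaving out MG replicate 3 raised the MG vs GC count to 3. The median log2 fold change of the 23 genes was -0.72 in AG vs GC and -0.03 in MG vs GC, beside -0.05 and 0.22 over all genes in that fit. It was -0.15 in AG vs GC with the 4 genes at 0 reads in AG set to a bound of 3 reads over the group. Trim39 stood at 2.30 (SE 0.62) and 1.19 (SE 0.60).

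Genes next to Trim39 did not share its abundance. Of the 90 other genes of the files within 500 kb, 23 had any read, and they held 218 reads together, fewer than Trim39 in AG alone (590). The gene directly beside it, Rpp21, which encodes a subunit of ribonuclease P and lies 0.804 kb away, had 1 read, and H2-M10.2 on the other side was listed at 0. The neighbours with the most reads lay farther off. They were the tubulin gene Tubb5 (47 reads, 421 kb away), the MHC class I genes H2-T24 (31 reads, 238 kb) and H2-T22 (20 reads, 216 kb), the DNA damage mediator Mdc1 (27 reads, 399 kb) and the phosphatase regulator Ppp1r18 (26 reads, 383 kb). Summed over the 90 genes, TMM-normalized CPM were 117 ± 64.8 (SD) in AG, 86.5 ± 20.7 in MG and 65.7 ± 19.2 in GC, and the 3 groups overlapped. In plain CPM AG was lowest, at 69.7 ± 30.4, beside 116 ± 52.1 for MG and 81.5 ± 33.9 for GC.

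In the fit on 6270 genes, 11 neighbours could be tested and 0 passed an adjusted p of 0.05 in any pair, where 0% of all genes passed in AG vs GC, 0.0957% in MG vs AG and 0.159% in MG vs GC, so the count does not set the neighbours apart. By the criterion of the study 2 of 11 passed in AG vs GC, in opposite directions, beside 12.2% of all genes. H2-T23, which encodes the nonclassical MHC molecule Qa-1, had 6 reads in AG and 0 in GC, and H2-Bl had 0 in AG and 4 in GC. In MG vs GC 1 of 11 passed, Mdc1, with 19 reads in MG and 2 in GC, beside 13.6% of all genes. The AG vs GC count was 1 without AG replicate 3, MG replicate 4, GC replicate 2 or GC replicate 5, and the MG vs GC count was 0 without MG replicate 1 or GC replicate 1, 3 or 5. The median log2 fold change of the 11 was 0.44 in AG vs GC and -0.18 in MG vs GC. Among the 5 with the most reads, Tubb5 was at 0.77 (SE 0.87) in AG vs GC, Mdc1 at 1.42 (SE 1.18), H2-T24 at 0.44 (SE 0.96), Ppp1r18 at -0.33 (SE 1.03) and H2-T22 at -0.46 (SE 1.12). In simulated counts for AG vs GC with a dispersion of 0.3, this fit recovered 12.4% of 177 genes changed by 2 on the log2 scale. Changes of that size would thus mostly not be detected in this fit. The 177 mix genes with few reads and genes with enough reads for the fit on 272 genes, so 12.4% is not the rate of either kind alone. Of the other genes of chromosome 17, 9 were in the fit on 272 genes and 0 of them passed an adjusted p of 0.05 in any pair, beside 1.47% of all genes in AG vs GC and 0% in the other pairs. In the fit on 6270 genes 0 of 280 passed in any pair, and by the criterion of the study 37 of 280 (13.2%) passed in AG vs GC, 28 in MG vs AG and 29 in MG vs GC, beside 12.2%, 13.1% and 13.6% of all genes.

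**Figure D4:**
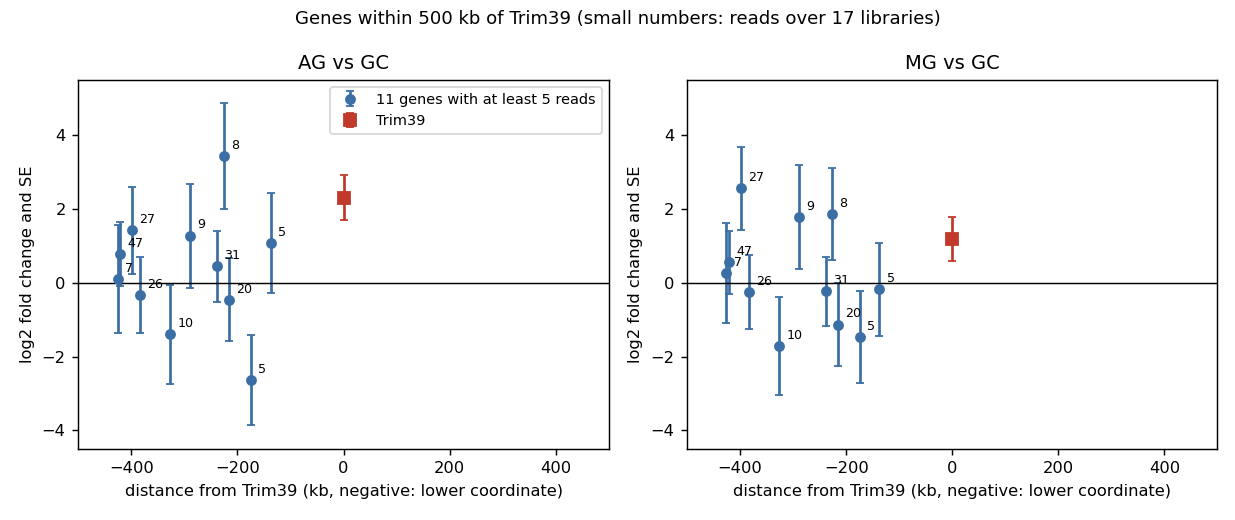
Log2 fold change and SE of the 11 genes within 500 kb of Trim39 that had at least 5 reads (circles, with their reads over 17 libraries) and of Trim39 (square), by distance in kb along the chromosome, for AG vs GC and MG vs GC. The 11 neighbours all lie at lower coordinates, and their values scatter around 0 on both sides, from -2.63 to 3.43 in AG vs GC.

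Transcripts of proteins known to act with Trim39 were scarce. Of 25 listed genes, covering Moap1, Rassf1, Bax, Nfatc3, Trim17, Cactin, Trp53, Cdkn1a, Mdm2 and the subunits and activators of the APC/C, 23 had reads, 161 in all, and 12 could be tested in the fit on 6270 genes. Trim17 is also counted among the other TRIM genes. Moap1 and Anapc15 were listed at 0, and 0 of 12 passed an adjusted p of 0.05 in any pair, beside the same 0%, 0.0957% and 0.159% of all genes. By the criterion of the study 1 of 12 passed in AG vs GC and 3 of 12 in MG vs GC, beside 12.2% and 13.6% of all genes. In AG vs GC this was Cactin, an inhibitor of NF-kappaB signalling, whose 4 AG reads all came from replicate 5. The 3 in MG vs GC were the cell cycle inhibitor Cdkn1a (6 reads in MG and 0 in GC), Nfatc3 (12 and 1) and the tumour suppressor Rassf1 (4 and 0), all singled out from their values. The median log2 fold change of the 12 was 0.73 in AG vs GC and 0.25 in MG vs GC, and 0.20 and -0.075 with the 3 genes at 0 in a group set to the bound. Their summed TMM-normalized CPM were 78.1 ± 54.2 (SD) in AG, 72.9 ± 75.0 in MG and 55.1 ± 18.4 in GC. In plain CPM AG was again lowest, at 45.7 ± 26.0, beside 81.7 ± 76.2 for MG and 67.8 ± 34.8 for GC.

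The gene whose pattern came closest to Trim39 was Mir17hg, the host transcript of the miR-17-92 microRNA cluster on chromosome 14. Over the 17 libraries, Pearson's r of log2(TMM-normalized CPM + 1) was 0.91 (Spearman's rho 0.92), beside a median r of -0.16 over the 271 other tested genes. With each group's mean subtracted, r was 0.85 and Mir17hg was still first of 271. It was also first on CPM of all counts (r = 0.83) and on CPM without the 4 dominant genes (r = 0.92), and r stayed between 0.89 and 0.93 with any single library left out. Both genes were read from the same libraries and share their depth and scaling, so these values describe the libraries and are no test.

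The next genes over all libraries were Hist1h3b, a replication-dependent histone H3 gene (r = 0.83), and Bpgm, which makes the red cell regulator of oxygen affinity 2,3-bisphosphoglycerate (r = 0.81). They were followed by Vmp1, an autophagy gene whose 3′ end overlaps the gene of microRNA 21 (r = 0.75), and Oaz1, the inhibitor of polyamine synthesis (r = 0.75). Within groups the order after Mir17hg was Dcaf12, a substrate receptor of a cullin ligase (r = 0.68), Polr2m (0.63), the ribosomal protein gene Rps23 (0.62) and Fech, the last enzyme of heme synthesis (0.61). Hist1h3b fell to 0.51 within groups and Vmp1 to 0.35, so much of their likeness lay in the group means.

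Mir17hg held 42, 54, 105, 64, 48 and 19 reads in AG. It held 44, 36, 34, 77, 45 and 28 reads in MG, and 24, 21, 13, 34 and 30 in GC. The libraries with the most Trim39 reads in AG and in MG, replicate 3 and replicate 4, were also those with the most Mir17hg reads. The number of Trim39 reads per Mir17hg read, which no scaling can change, had a mean of 1.82 ± 0.473 (SD) in AG. The mean was 1.28 ± 0.251 in MG and 1.03 ± 0.361 in GC. It ranged from 1.29 to 2.42, from 0.867 to 1.52 and from 0.625 to 1.62. All 3 groups overlapped on this ratio, and AG exceeded GC in 27 of 30 library pairs.

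**Figure D5:**
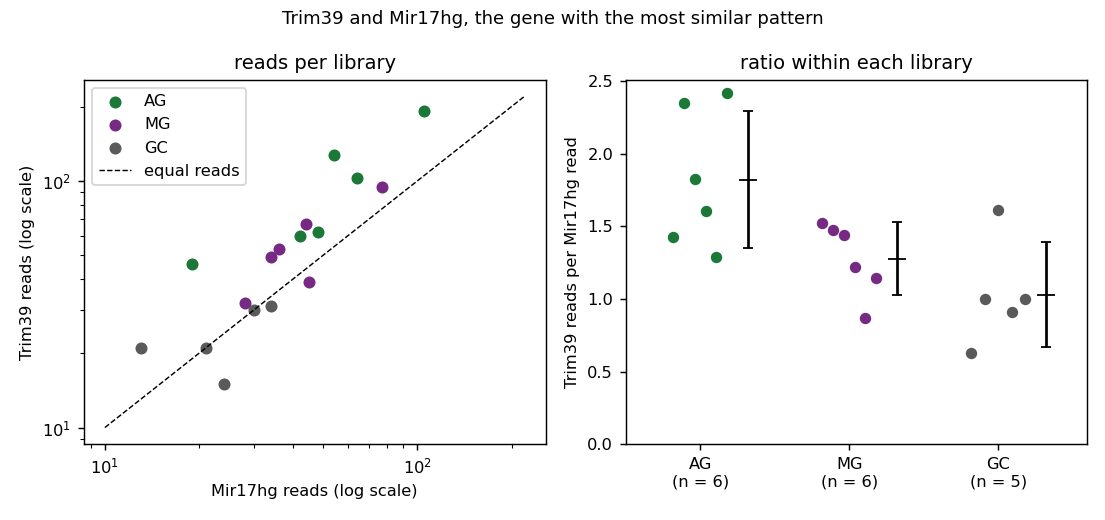
Left, Trim39 reads against Mir17hg reads in each library on log axes, coloured by group, with a dashed line of equal reads; right, the ratio of the 2 counts per library with group mean and SD. The points rise together, and the ratio has means of 1.82 in AG, 1.28 in MG and 1.03 in GC with overlapping ranges.

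The sequences of Trim39 and the miRNAs were compared after this likeness had been seen, and the result is a description only. Of 1679 mature mouse miRNAs from RefSeq, the median longest run identical to a Trim39 transcript was 8 bases, 8 (0.476%) shared at least 13 bases and 2 (0.119%) at least 15. Both arms of miR-17 were among the 8, while the 11 mature miRNAs of the cluster ranged from 6 to 15 bases, so none matched over its full length. The arms of miR-17 are shown with the Trim39 windows on GRCm38 that hold the run, at chr17:36263740-36263769 in the coding sequence for miR-17-5p and at chr17:36258992-36259021 in the 3′ UTR for miR-17-3p, both on the minus strand. Capitals mark the identical bases.
miR-17-5p: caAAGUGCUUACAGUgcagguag
Trim39 coding window: tggagggcAAGTGCTTACAGTcaggcttcg
miR-17-3p: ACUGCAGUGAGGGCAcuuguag
Trim39 3′ UTR window: gacaagaaACTGCAGTGAGGGCAttcagtt
The runs are in the same sense as the miRNA and are not sites of complementarity. The single miRNA gene entries of the cluster lie inside Mir17hg and were listed at 0 reads in the files. The Mir17hg reads were counted on this enclosing gene, so reads of the miRNAs and of the rest of the host transcript cannot be told apart. The longest run of all belonged to miR-706, whose 22 bases are all present in the 3′ UTR of Trim39, and the Mir706 gene was listed at 0 reads.

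Marker genes of cells that release RNA into plasma were summed for each library. The 16 red cell genes found in the files summed to a median of 16434 TMM-normalized CPM in AG (range 10240 to 25788), 9068 in MG (3041 to 19305) and 8588 in GC (6365 to 19019), with none at 0 reads. In plain CPM the medians were 9784 for AG, 13296 for MG and 9782 for GC, and AG was not the highest group. Of the 10 red cell genes in the fit on 272 genes, 1, Bpgm, passed an adjusted p of 0.05 in AG vs GC, beside 1.47% of all genes, and all 10 had a positive log2 fold change. In MG vs AG 0 of the 10 had a positive value (median -1.29). By the criterion of the study 3 of 10 passed in AG vs GC, all higher in AG, and 6 of 10 in MG vs AG, all lower in MG, beside 11.8% and 13.2% of the 272 genes. In the fit on 6270 genes 0 of 16 red cell genes passed an adjusted p of 0.05 in any pair, beside 0% of all genes in AG vs GC, 0.0957% in MG vs AG and 0.159% in MG vs GC. By the criterion of the study 1 of 16 passed there in AG vs GC, 5 in MG vs AG and 2 in MG vs GC. The shares of all genes were 12.2%, 13.1% and 13.6%. The number of Trim39 reads per 1000 red cell reads was 50.5 ± 16.9 (SD) in AG, 42.8 ± 20.6 in MG and 16.9 ± 11.6 in GC. AG and GC overlapped in a single library pair of 30, and MG was higher than AG in 11 of 36 library pairs, all of which involved AG replicate 1 or MG replicate 6. Whether the red cell RNA has a part in the Trim39 level was not tested.

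The 12 platelet genes were lowest in AG, at a median of 2424 TMM-normalized CPM (297 to 3034), beside 2826 in MG (1284 to 3504) and 3826 in GC (1485 to 3995), with none at 0. The plain CPM medians were 1527, 3914 and 5314. The 11 leukocyte genes had medians of 254, 253 and 221 in AG, MG and GC (132, 324 and 244 in plain CPM), with only the T cell gene Cd3e at 0. The 12 liver genes had medians of 148, 332 and 115 in AG, MG and GC (103, 386 and 128 in plain CPM). They ranged from 27.4 to 3328 in AG, from 38.4 to 4213 in MG and from 96.0 to 211 in GC. The highest AG and MG values were those of replicate 6. AG replicate 6 held 255 liver reads, beside 3 to 24 in the other AG libraries, and MG replicate 6 held 525, beside 8 to 101. The liver fold changes thus rest largely on 1 library per flight group. In the fit on 6270 genes 11 of 12 liver genes had a positive log2 fold change in AG vs GC (median 1.28), where 0 passed an adjusted p of 0.05, and 12 of 12 in MG vs GC (median 2.05), where 1 passed, beside 0.159% of all genes. The medians over all genes in that fit were -0.05 and 0.22. By the criterion of the study 3 passed in AG vs GC and 8 in MG vs GC, beside 12.2% and 13.6% of all genes. Their part in the Trim39 level was not tested. The 12 skeletal muscle genes had medians of 73.0, 113 and 139 (38.0, 163 and 71.8 in plain CPM), with Myh2 and Mylpf at 0.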

How the data were processed

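The authors made small RNA libraries from plasma RNA, sequenced 2 × 36 bases, mapped reads to mm10 in CLC Genomics Workbench 10.1.1 and quantified 49585 genes. The authors deposited read counts without normalization, RPKM (scaled to gene length and all mapped reads) and TPM (rescaled to a constant sum). Trimming, strand setting and the handling of reads with several matches are not given in the sources used here.

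Counts were tested in R 4.3.3 with edgeR 4.0.16 (quasi-likelihood, TMM, filterByExpr, all 17 libraries in 1 fit, Benjamini-Hochberg adjustment at 0.05). SEs were taken as the log2 fold change over the square root of F. DESeq2 1.42.0 and limma 3.58.1 on log2(RPKM + 1) were alternatives, as were DESeq2 size factors, other filters, the exact test and each library left out. A second fit held the 6270 genes with at least 5 reads. The biological coefficient of variation was 0.574. On simulated counts with a dispersion of 0.3 for AG vs GC, 85.2% of 54 genes with a log2 change of 2 were recovered among 250 genes, and 12.4% of 177 among 5573 genes. False calls were 4 of 50 and 1 of 23. The simulated libraries shared 1 expression profile apart from the changed genes, unlike the real libraries with their varying dominant genes. Each library is 1 mouse, and no 2 libraries of a group agreed within sampling noise.

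Named genes were Trim39, the MHC-region TRIM genes, Trim58, TRIM genes or listed partners with at least 50 reads, called TRIM genes or neighbours, the 5 neighbours with the most reads, those next to Trim39, and the 5 genes most like it over all libraries and within groups. Genes passing the criterion of the study were singled out from their values. The members and lists were chosen with earlier results of these data known. Hbb-b1, Hbb-b2 and Itgam were not used here. Positions come from the GENCODE M21 annotation of GRCm38 (mm10). The replicate numbers were not treated as pairs, since the labels give them no shared origin and 7 of 16 same-numbered pairs deviated together with r above 0.1.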

Additional observations from a re-analysis of the deposited data

Results flagged for a closer look

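In 42 groups of 5 or 6 libraries, 9 values stood apart from the rest of their group by Dixon's 95% limit, where about 2.1 would be expected by chance. Most of these groups hold the same Trim39 counts on different scales, so the 9 values are not independent. MG replicate 4 was high for Trim39 on TMM-normalized CPM (763), on quantile-normalized counts (156), on TPM (30.1) and on RPKM over the library mean (1.49). The last 2 scales differ only by a constant, so they give the same flag. GC replicate 4 was high on TMM-normalized CPM (311) and on counts over DESeq2 size factors (42.7). On CPM of all counts it stood at 159, inside the range of the other GC libraries (120 to 177). Its TMM factor, by which the library total is multiplied, was 0.525, beside 1.32 to 1.74 in the other GC libraries. Without MG replicate 4 the log2 fold change of MG vs GC was 0.91 and that of MG vs AG was -1.50, and without GC replicate 4 those of AG vs GC and MG vs GC were 2.82 and 1.68. AG replicate 3 had the most Trim39 reads per read of another TRIM gene (12), and MG replicate 6 the most per 1000 red cell reads (84.4). Within GC only, replicate 3 had the highest sum of the genes within 500 kb (99.4 TMM-normalized CPM), below the highest AG (203) and MG (114) libraries. The causes were not tested.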

How the results depend on the processing

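The Trim39 differences kept their sign under all alternatives tried, and the changes below were in size. Without TMM scaling the log2 fold change was 1.61 for AG vs GC and -0.081 for MG vs AG, and with limma on log2(RPKM + 1) it was 1.07 for AG vs GC and 0.49 for MG vs GC. The AG vs GC difference of mean log2 values was 1.60 on CPM, 1.07 on RPKM, 0.64 on RPKM over the library mean and 1.74 on TPM. The MG vs AG difference was -0.29 on CPM, -0.58 on RPKM and -0.32 on RPKM over the library mean, and the MG vs GC difference was 0.49 and 0.32 on the last 2 scales. The low RPKM values are compressed by the added 1, and the cause of the other changes was not tested. With single libraries left out, the log2 fold changes ran from 2.25 to 2.82 for AG vs GC, from -1.50 to -0.98 for MG vs AG and from 0.91 to 1.68 for MG vs GC.

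Genes called in AG vs GC numbered 4 with TMM, 9 without it, 8 with DESeq2, 7 with the exact test, 1 with the 2 groups alone and 0 with limma or with all genes of at least 5 reads. The count was 0 to 6 with a library left out (2 without AG replicate 1 or 3, 1 without GC replicate 1, and 0 without GC replicate 2, 3 or 5). In MG vs AG it was 0 with TMM, 58 without it, 9 with DESeq2, 5 with the exact test, 1 with the 2 groups alone, 6 with all genes of at least 5 reads and 0 to 10 with a library left out, the 10 without MG replicate 4. In MG vs GC it was 0 with TMM, 10 with all genes of at least 5 reads and 0 to 1 with a library left out. At an unadjusted p under 0.05 the quasi-likelihood fit gave 36 genes in MG vs AG and 12 in MG vs GC.

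By the criterion of the study, 32 genes passed in AG vs GC, 113 without TMM, 764 with all genes of at least 5 reads, 50 with limma and 20 to 46 with a library left out (20 without AG replicate 4). In MG vs AG 36 passed, 132 without TMM, 819 with all genes of at least 5 reads and 20 with limma. In MG vs GC 12 passed, 854 with all genes of at least 5 reads, 6 with limma and 8 to 25 with a library left out (25 without GC replicate 4). A replicate block gave 3 calls in MG vs AG and moved no other count by over 1.5 times, but replicate numbers are not known to pair the mice. With 1042 Trim39 reads in 17 libraries and 447 for the other TRIM genes, changes in single TRIM genes or neighbours were mostly below what these counts on genes can show.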
